A study of Mus musculus with 8 samples.

Results

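UDP-glucuronosyltransferases (UGTs) and sulfotransferases (SULTs) make up the conjugation step of hepatic detoxification. Their genes were taken as all rows of the deposited expression table whose symbol begins with Ugt1, Ugt2, Ugt3 or Ugt8, or with Sult1 to Sult6, symbols ending in -ps left out. This gave 33 genes of 25010, namely 9 Ugt1a genes, 10 Ugt2 and Ugt3 genes, Ugt8a, 5 Sult1 genes, 4 Sult2 genes and 4 genes of the Sult3 to Sult6 families. Livers came from 2 WT mice and 2 mice lacking both liver X receptors (LXRs) in every tissue, LXRα and LXRβ (LXRDKO). All were C57BL/6 animals, 8 wk old and fasted for 4 to 6 h, and each liver gave 1 RNA-Seq library from its left lobe. The knockout is not confined to hepatocytes, and with 2 livers for each genotype the error is that between single mice.

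UGTs sit in the membrane of the endoplasmic reticulum and transfer glucuronic acid from UDP-glucuronic acid to bilirubin, steroids, bile acids and drugs. SULTs are cytosolic enzymes that transfer a sulfonate group from the donor PAPS to phenols, amines, hormones, hydroxysteroids and bile acids. In both cases the product is more soluble in water and leaves the hepatocyte through transporters toward bile or blood.

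The genes of the Ugt1a locus on chromosome 1 each have a first exon of their own, which encodes the substrate-binding part of the enzyme, and share the exons that follow. The junctions of 5 of them are shown because they decide what a read of 50 bases can tell apart. The last 30 coding bases of the own exon are in lower case, the first 30 bases of the common exon, at chr1:88215044-88215073 on the plus strand of GRCm38, in capitals.
Ugt1a1: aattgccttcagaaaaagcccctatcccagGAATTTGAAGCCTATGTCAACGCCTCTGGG
Ugt1a5: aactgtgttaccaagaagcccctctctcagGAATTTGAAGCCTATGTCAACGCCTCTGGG
Ugt1a6a: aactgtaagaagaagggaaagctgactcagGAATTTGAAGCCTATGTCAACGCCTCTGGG
Ugt1a6b: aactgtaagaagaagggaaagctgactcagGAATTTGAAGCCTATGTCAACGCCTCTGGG
Ugt1a9: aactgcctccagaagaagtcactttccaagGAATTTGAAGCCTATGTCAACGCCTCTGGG
The own exons end at chr1:88212842-88212871 for Ugt1a1, chr1:88166874-88166903 for Ugt1a5, chr1:88139302-88139331 for Ugt1a6a, chr1:88107770-88107799 for Ugt1a6b and chr1:88071649-88071678 for Ugt1a9. The stretches of Ugt1a6a and Ugt1a6b are identical. In the GENCODE M21 transcripts, between 52.1% and 79.8% of the distinct stretches of 50 bases of each Ugt1a gene also occurred in a transcript of another gene, with the highest share in Ugt1a6b. The count of Ugt1a8 was at most 4.24 per liver although it has the same common exons as Ugt1a1, so reads on these exons were not counted for every gene of the locus. Values for single Ugt1a genes are therefore uncertain, above all the split between Ugt1a6a and Ugt1a6b. An antisense gene, Gm20528, overlaps exons of all 9, and whether the counting used strand is not given in the sources used here.

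The expression values are normalized counts, that is, reads counted on a gene divided by the size factor of the library. The libraries held from 55772659 to 72842744 reads on genes. The labels held for the deleted receptors, with log2 fold changes of −1.65 for Nr1h3 (adjusted P = 0.0147, limma) and −1.66 for Nr1h2 (adjusted P = 0.0147, limma). Hepatocyte genes were high in every liver, with between 6116130 and 7405330 normalized counts summed over 7 genes including Alb. Most of this sum was Alb. Of the 7, limma called none and DESeq2 called Hnf4a higher in LXRDKO mice (adjusted P = 0.0115, DESeq2). Hnf4a had 44148 and 38999 normalized counts in WT against 70769 and 56007 in LXRDKO mice. Of 6 kidney tubule markers 3 were found in the table, and their sum was at most 8.58. The male-specific genes Ddx3y, Kdm5d, Uty and Eif2s3y were read in all 4 livers, while Xist had from 5.70 to 10.4 normalized counts. Markers of other cell types also moved with genotype. All 8 cholangiocyte markers tested had positive log2 fold changes, with 1 called by DESeq2 and none by limma. Their summed level was 2149 and 3717 in WT against 4714 and 5610 in LXRDKO mice. Most of that sum was Spp1, with 1433 and 2907 normalized counts in WT against 3658 and 4300 in LXRDKO mice. All 6 stellate cell markers had positive log2 fold changes as well, with sums of 11522 and 12031 in WT against 16308 and 18209 in LXRDKO mice, with 2 called by DESeq2 and none by limma. Of 6 sinusoidal endothelial markers 5 were negative, with sums of 10344 and 9253 in WT against 7849 and 6005 in LXRDKO mice, and Kdr was called lower by both tools. Of 7 macrophage markers 4 were positive and 3 negative, with none called by either tool. This list leaves out the Kupffer cell and macrophage markers Cd5l, Cd163 and Clec4f, which the paper reports as strongly reduced in LXRDKO liver. The part of these cell types in the results was not tested, and in whole liver fewer cells of a type and less RNA per cell cannot be told apart. WT replicate 2 stood apart in some genes that differ between the sexes. It was the lowest liver for 15 of the 26 conjugation genes tested, and the log2 fold changes were also computed without it.

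Conjugation genes took between 0.406% and 0.470% of all normalized counts in a liver. Their sum was 299174 and 251109 normalized counts in WT against 263010 and 266093 in LXRDKO mice, so the LXRDKO livers lay between the WT livers. Compared per kilobase of exon that no other gene on the same strand shares, Ugt1a1 had the highest mean level in WT livers, 22391 normalized counts per kb. It was followed by Ugt2b1 with 16243, Ugt2b36 with 15066, Ugt2b5 with 14334 and Sult2a8 with 13925 normalized counts per kb. Sult1a1, with 9980 normalized counts per kb, was the Sult1 gene with the highest level. The exon lengths come from GENCODE M21, and how the authors handled shared exons is not given in the sources used here.

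**Figure D1:**
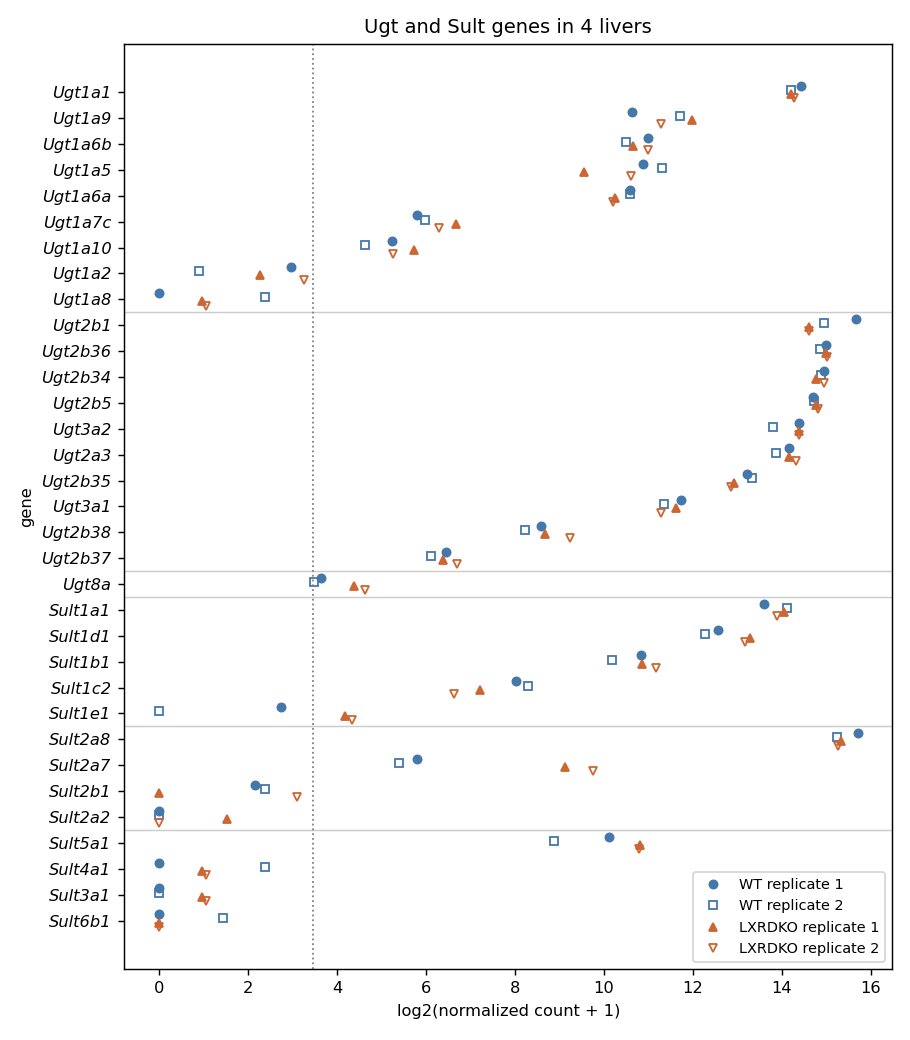
Levels of the 33 genes in each liver, as log2(normalized count + 1) on the horizontal axis, with 1 row per gene, gray lines between families and the dotted line at a normalized count of 10. Circles and squares are WT replicates 1 and 2, and triangles pointing up and down are LXRDKO replicates 1 and 2. Sult2a7 stands out by the gap between its WT and LXRDKO points, and 7 genes lie at the low end.

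Of the 33 genes, 26 had a mean of at least 10 normalized counts and were tested. Only Sult2a7 passed an adjusted P of 0.05 by limma, and it was up-regulated in LXRDKO livers. Over all 15578 genes tested, 0.135% were called higher and 0.186% lower. DESeq2, run on the reads recovered from the values, called 4 members, Sult2a7 and Sult1d1 higher and Ugt2b1 and Sult1c2 lower, where 1.56% of 15797 genes were called higher and 2.03% lower. Without adjustment, 9 of the 26 had a limma P value under 0.05, against 13.3% of all genes tested. The genotypes did not overlap in 16 genes. LXRDKO was the higher in 11 of them, against 21.7% of all genes, and the lower in 5, against 23.0%. The median log2 fold change was 0.17 over the 26 genes and −0.0046 over all genes tested, and the median absolute log2 fold change was 0.42 against 0.17. With so few livers, the limma test borrows the spread from all genes.

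**Figure D2:**
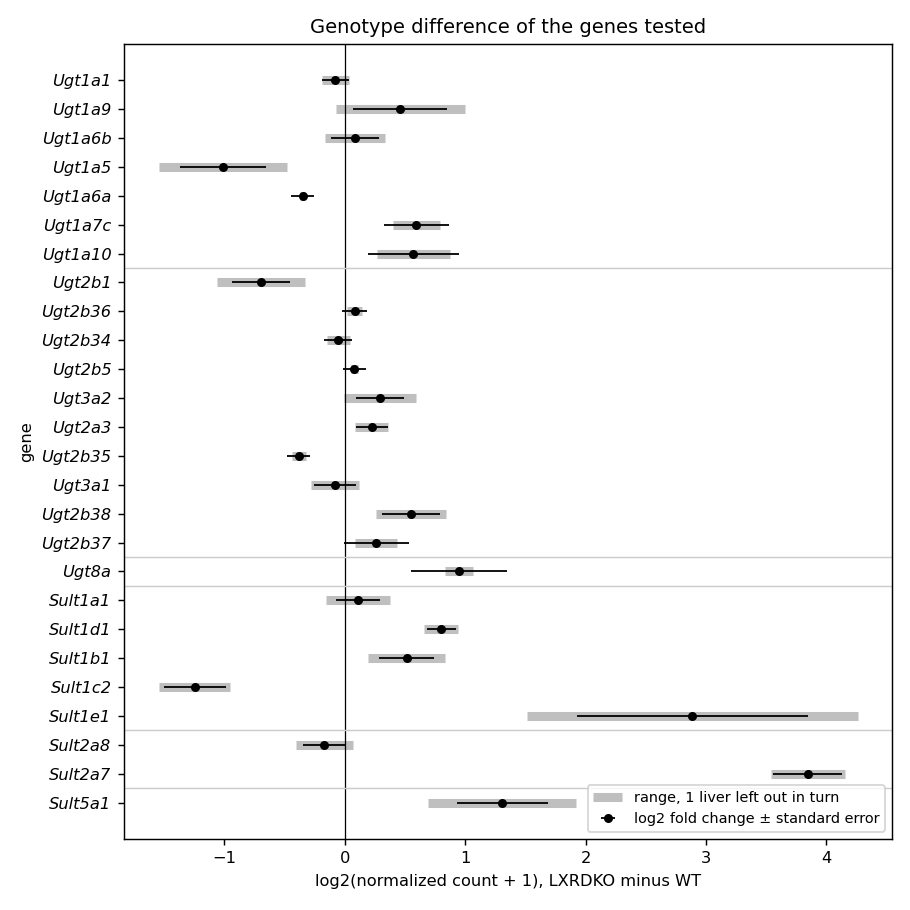
Log2 fold changes (LXRDKO minus WT, on the log2 scale of normalized count + 1) of the 26 genes tested. Points with black bars give the value and its standard error from limma, and gray bars the range when each liver is left out in turn. Sult2a7 is at 3.84 with a range from 3.54 to 4.15, and Sult1c2 is the lowest at −1.25.

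Sult2a7 belongs to the Sult2a family of hydroxysteroid and bile acid sulfotransferases and lies at chr7:14465051-14494230 of GRCm38, on the minus strand. Its normalized counts were 54.7 and 40.7 in WT against 559 and 857 in LXRDKO mice. The groups were far apart, and both LXRDKO livers were higher than either WT liver. The log2 fold change was 3.84 ± 0.28 (SE, limma adjusted P = 0.0239), a 14.4-fold increase on the fitted scale. The log2 fold change from DESeq2 was 3.90 ± 0.32 (SE), and the adjusted P was 1.15e-31 by DESeq2 and 0.0271 by edgeR. Without WT replicate 2 the log2 fold change was 3.64 (limma adjusted P = 0.00654). The adjusted P rose to 0.107 without LXRDKO replicate 1, to 0.132 without LXRDKO replicate 2 and to 0.212 when limma was run without a variance trend.

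Sult2a8, the neighbour of Sult2a7 18.3 kb away at chr7:14410686-14446769, encodes the main bile acid sulfotransferase of mouse liver. It had 53085 and 38373 normalized counts in WT against 41263 and 39022 in LXRDKO mice. The LXRDKO livers lay between the WT livers, and the log2 fold change was −0.17 ± 0.18 (SE, limma adjusted P = 0.753). Sult2a7 amounted to 0.103% and 0.106% of the Sult2a8 count in WT but to 1.35% and 2.19% in LXRDKO mice. The log2 ratio of Sult2a7 to Sult2a8 thus differed by 4.04 between genotypes, from −9.90 ± 0.03 (SD) in WT to −5.86 ± 0.49 (SD) in LXRDKO. The WT ratios rest on 48 Sult2a7 reads in each WT liver, and an SD from 2 livers says little about the true spread. An exact two-sided permutation test over the 4 livers gave P = 0.333, the smallest value that it can give. Both Sult2a2 and Sult2b1, the cholesterol sulfotransferase gene, were too low to test. Sult2a2 had 2 reads in LXRDKO replicate 1 and none in the other livers, and Sult2b1 had at most 7.50 normalized counts. Of the stretches of 50 bases of Sult2a2, 62.1% also occur in transcripts of other genes, so its low count is uncertain.

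**Figure D3:**
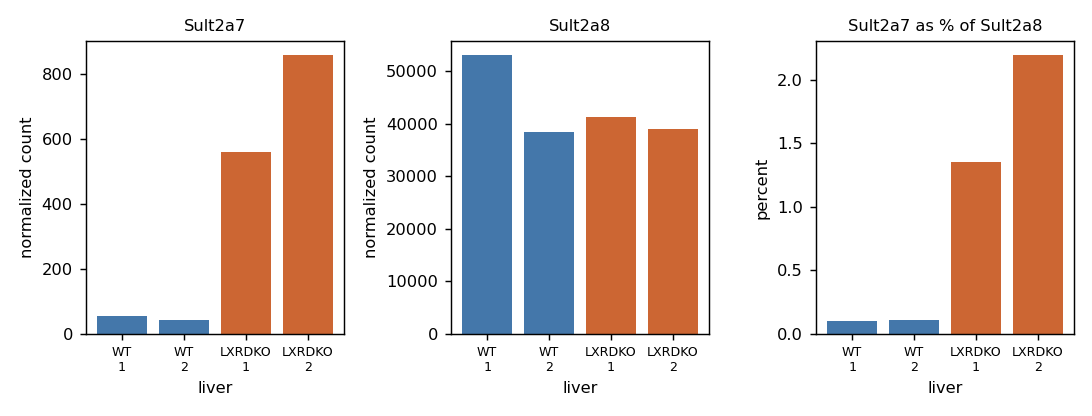
Normalized counts of Sult2a7 and Sult2a8 and the percent of the first in the second, with 1 bar per liver, blue for WT replicates 1 and 2 and orange for LXRDKO replicates 1 and 2. Sult2a7 rises from 54.7 and 40.7 to 559 and 857, while Sult2a8 lies between 38373 and 53085 in all livers.

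Since Sult2a8 was so much higher, the coding exons of both genes were compared. The longest coding exon of Sult2a7 (coding exon 2 of 7, at chr7:14491718-14491926 on the minus strand of GRCm38) and the corresponding exon of Sult2a8 (coding exon 2 of 6, at chr7:14425348-14425556) are shown, with the bases that differ in capitals.
Sult2a7: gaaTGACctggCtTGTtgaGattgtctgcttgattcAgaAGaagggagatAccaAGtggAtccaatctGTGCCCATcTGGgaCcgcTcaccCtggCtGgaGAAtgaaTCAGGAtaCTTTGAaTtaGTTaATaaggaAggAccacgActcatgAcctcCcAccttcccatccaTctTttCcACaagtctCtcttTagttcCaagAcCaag
Sult2a8: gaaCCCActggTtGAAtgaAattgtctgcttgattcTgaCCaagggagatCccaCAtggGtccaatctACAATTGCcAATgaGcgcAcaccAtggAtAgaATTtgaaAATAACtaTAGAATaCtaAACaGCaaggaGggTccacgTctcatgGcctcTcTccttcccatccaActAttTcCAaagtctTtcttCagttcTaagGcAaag
Of 209 bases, 69 differed, an identity of 67.0%. Over the whole transcripts, none of the 1273 distinct stretches of 50 bases of Sult2a7 occurred in a transcript of another gene. The nearest stretch of Sult2a8 differed by 4 bases, none came within 2 mismatches and 7 came within 5, and the median was 22 mismatches. Reads of 50 bases can therefore be told apart between the transcripts of these genes.

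The Sult1 genes encode enzymes for phenols, catecholamines, thyroid hormone and estrogen, and 4 of the 5 had positive log2 fold changes, with a median of 0.51. None was called by limma or edgeR, 3 had an unadjusted limma P under 0.05, and DESeq2 called 1 higher and 1 lower. Sult1d1, which acts on catecholamines such as dopamine, had 6046 and 4968 normalized counts in WT against 9884 and 9254 in LXRDKO mice. For Sult1d1 the WT livers differed 1.22-fold and the LXRDKO livers 1.07-fold, and both LXRDKO livers were higher. Its log2 fold change was 0.80 ± 0.12 (SE), with an adjusted P of 0.0920 from limma and 4.01e-05 from DESeq2. Limma called it with upper-quartile scaling (adjusted P = 0.0388). With all livers kept, no other setting of limma or edgeR tried at this threshold called it (adjusted P from 0.0628 to 0.273). The log2 fold change ranged from 0.66 to 0.94 when each liver was left out.

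Sult1c2 was lower in both LXRDKO livers. It had 260 and 313 normalized counts in WT against 147 and 97.5 in LXRDKO mice, with no overlap between genotypes. The log2 fold change was −1.25 ± 0.26 (SE), and its adjusted P was 0.154 by limma and 0.00460 by DESeq2. Sult1e1, the estrogen sulfotransferase gene, was near the limit of detection, with 5.70 and 0 normalized counts in WT against 17.1 and 19.3 in LXRDKO mice. These values stand for 5 reads in WT replicate 1, 0 in WT replicate 2 and 18 in each LXRDKO liver. The reads gave a ratio of 7.45 of LXRDKO to WT (95% exact interval 2.91 to 24.3, which covers counting error only). Sult1e1 had a log2 fold change of 2.89 ± 0.96 (SE), and its adjusted P was 0.304 by limma and 0.405 by DESeq2. This value depends on the pseudocount and on the WT livers, with 1.32 at a pseudocount of 8, 1.52 without WT replicate 2 and 4.26 without WT replicate 1.

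Sult1b1, which acts on thyroid hormone, had 1812 and 1160 normalized counts in WT against 1852 and 2313 in LXRDKO mice. WT replicate 1 came close to LXRDKO replicate 1, and WT replicate 2 was lower. Its log2 fold change of 0.51 ± 0.23 (SE) had an adjusted P of 0.418 from limma. Without WT replicate 2 the log2 fold change was 0.19. Sult1a1, the main phenol sulfotransferase gene, had 12330 and 17749 normalized counts in WT against 16771 and 15219 in LXRDKO mice. Here the genotypes overlapped (log2 fold change 0.11 ± 0.18 SE, limma adjusted P = 0.859).

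Among the Ugt2 and Ugt3 genes, 6 log2 fold changes were positive and 4 negative, with a median of 0.08. Neither limma nor edgeR called any of the 10, 2 had an unadjusted limma P under 0.05, and DESeq2 called 1, Ugt2b1. Ugt2b1, at chr5:86916638-86926530, had the highest mean count of the group, with 52189 and 31396 normalized counts in WT against 25082 and 24913 in LXRDKO mice. The LXRDKO livers were nearly equal and both lower, whereas the WT livers differed 1.66-fold. The log2 fold change was −0.70 ± 0.24 (SE), and its adjusted P was 0.316 by limma and 0.0364 by DESeq2. Leaving out WT replicate 1 gave a log2 fold change of −0.33, and leaving out WT replicate 2 gave −1.06. Ugt2b1 made up 26.7% and 19.6% of the Ugt2 and Ugt3 counts in WT livers and 15.3% and 14.6% in LXRDKO livers.

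Ugt2b35 had 9476 and 10276 normalized counts in WT against 7787 and 7354 in LXRDKO mice. Both genotypes were tight and did not overlap. Its log2 fold change of −0.38 ± 0.09 (SE) had an adjusted P of 0.203 from limma and 0.0906 from DESeq2. Ugt2b38 had 383 and 297 normalized counts in WT against 404 and 605 in LXRDKO mice, a log2 fold change of 0.55 ± 0.24 (SE, limma adjusted P = 0.409), and 37.4% of its stretches of 50 bases occur in other genes, mainly in Ugt2b5. Ugt2b5 itself, with 41.7% of its stretches shared, had a log2 fold change of 0.08 and from 26387 to 28658 normalized counts per liver.

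The log2 fold changes of Ugt2b34, Ugt2b36, Ugt2b37 and Ugt2a3 were −0.05, 0.08, 0.26 and 0.22, with limma adjusted P values from 0.550 to 0.902. Without WT replicate 2 these log2 fold changes were −0.087, 0.019, 0.088 and 0.083. The Ugt3 enzymes use other UDP sugars than glucuronic acid. Ugt3a1 had a log2 fold change of −0.08 and Ugt3a2 one of 0.29, with 21496 and 14159 normalized counts in WT against 21422 and 21373 in LXRDKO mice for Ugt3a2. Here WT replicate 2 stood below the other 3 livers, which were nearly equal, and without it the log2 fold change was −0.0066. Ugt8a, which encodes the galactosyltransferase of myelin lipid synthesis, had 11.4 and 10.2 normalized counts in WT against 19.9 and 23.6 in LXRDKO mice (log2 fold change 0.95 ± 0.40 SE, limma adjusted P = 0.394).

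Along chromosome 5, 8 Ugt2 genes and 3 Sult1 genes follow each other within 702 kb, from 86889767 to 87591594 of GRCm38. The 3 genes at one end, Ugt2b34, Ugt2b1 and Ugt2b35, had negative log2 fold changes, and the 8 that follow had positive ones. Several of these signs are uncertain. The values of Ugt2b34 (−0.052 ± 0.116 SE), Ugt2b36 (0.082 ± 0.106 SE), Ugt2b5 (0.079 ± 0.098 SE) and Ugt2b37 (0.262 ± 0.269 SE) were smaller than their SE. With total scaling Ugt2b34 was 0.0023. At the other end lie Sult1b1, Sult1d1 and Sult1e1 with log2 fold changes of 0.51, 0.80 and 2.89, which became 0.19, 0.66 and 1.52 without WT replicate 2. This order was noticed in the data and was not tested.

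**Figure D4:**
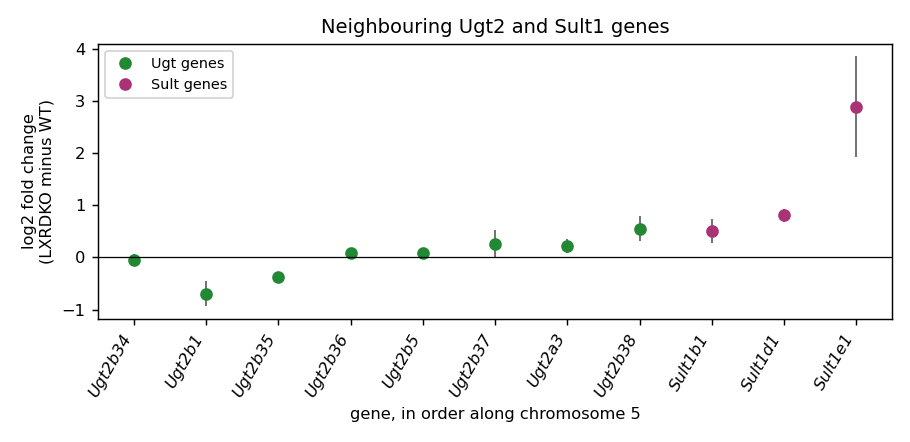
Log2 fold changes (LXRDKO minus WT) with standard errors of 11 neighbouring genes in their order along chromosome 5, green for Ugt2 and purple for Sult1 genes. Values run from −0.70 at Ugt2b1 to 2.89 at Sult1e1, which had a standard error of 0.96 and 5 reads in WT against 36 in LXRDKO livers.

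The 9 Ugt1a genes summed to 29143 and 27804 normalized counts in WT against 26693 and 27083 in LXRDKO mice. Both LXRDKO sums were lower than either WT sum, which was not tested. The total over all genes was lower in the LXRDKO livers too, with 6.36e+07 and 6.18e+07 in WT against 6.04e+07 and 6.03e+07. Of the 7 genes tested 4 had positive and 3 negative log2 fold changes (median 0.08), and limma, DESeq2 and edgeR called none of them, while 2 had an unadjusted limma P under 0.05. Ugt1a1, the bilirubin UGT, made up from 67.8% to 75.6% of the sum. It had 22022 and 18864 normalized counts in WT against 18913 and 19687 in LXRDKO mice. These overlapped, with a log2 fold change of −0.08 ± 0.11 (SE, limma adjusted P = 0.833).

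Ugt1a5 showed the largest difference of the locus, with 1876 and 2540 normalized counts in WT against 749 and 1565 in LXRDKO mice. The genotypes did not overlap, but the LXRDKO livers differed 2.09-fold. Its log2 fold change was −1.01 ± 0.35 (SE), and the adjusted P was 0.320 by limma and 0.588 by DESeq2. The log2 fold change ranged from −1.54 to −0.48 when each liver was left out. Ugt1a6a had 1531 and 1525 normalized counts in WT against 1218 and 1182 in LXRDKO mice, a small difference between tight groups (log2 fold change −0.35 ± 0.10 SE, limma adjusted P = 0.235). Ugt1a6b overlapped between genotypes and had a log2 fold change of 0.08.

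Ugt1a9 had 1588 and 3353 normalized counts in WT against 4044 and 2499 in LXRDKO mice. Its values overlapped, and the WT livers differed 2.11-fold. The lowly expressed Ugt1a7c and Ugt1a10 were higher in both LXRDKO livers, with log2 fold changes of 0.60 and 0.57 that did not pass the threshold (adjusted P = 0.425 and 0.596, limma). Without WT replicate 2 the log2 fold changes were 0.68 for Ugt1a7c and 0.27 for Ugt1a10. Ugt1a7c had 54.7 and 62.0 normalized counts in WT against 102 and 77.2 in LXRDKO mice, and Ugt1a10 had 36.5 and 23.8 against 52.2 and 37.5. Ugt1a2, with at most 8.58 normalized counts, and Ugt1a8 were too low to test.

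Sult5a1, at chr8:123140192-123158315, had 1096 and 467 normalized counts in WT against 1780 and 1768 in LXRDKO mice. The LXRDKO livers were nearly equal and higher than both WT livers, which differed 2.35-fold. The log2 fold change was 1.31 ± 0.38 (SE), and the adjusted P was 0.252 by limma and 0.396 by DESeq2. The log2 fold change was 0.69 when WT replicate 2 was left out and 1.92 when WT replicate 1 was left out. Sult3a1, an amine sulfotransferase gene, was listed at 0 in both WT livers and had 0.949 and 1.07 normalized counts in the LXRDKO livers, which is 1 read each. Sult4a1 and Sult6b1 had at most 4.24 and 1.70 normalized counts. A count of 0 allows up to 3 reads, or from 2.55 to 3.42 normalized counts depending on the library, so no fold is given for these genes.

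WT replicate 2 was the lowest liver for 25.5% of all genes tested, against 15 of the 26 conjugation genes. It lay below WT replicate 1 in 19 of the 26. The median absolute log2 difference between the WT livers was 0.38 over the members and 0.18 over all genes tested, and that between the LXRDKO livers was 0.18 and 0.17. Several genes known to be higher in male than in female liver were also low in this liver. This liver was the lowest for 7 of the 10 listed. Of the 10, limma called none, and DESeq2 called Cyp4a12a and Cyp4a12b, both lower in LXRDKO mice. Cyp4a12a had 12211 and 9294 normalized counts in WT against 5662 and 7098 in LXRDKO mice. For Cyp4a12b they were 5130 and 4127 against 1915 and 2588. In both genes WT replicate 2 lay above both LXRDKO livers. Cyp7b1 had 23124 and 5128 normalized counts in WT against 30756 and 29891 in LXRDKO mice. Susd4 had 3473 and 1073 in WT against 4905 and 4347 in LXRDKO mice. The female-biased Cyp2a4 had 53.6 and 3470 normalized counts in WT against 34.2 and 83.6 in LXRDKO mice, and WT replicate 2 stood far above the others. It was the highest liver for 2 of the 6 female-biased genes tested, and other genes of that list were not high in it alone. Cyp2b9 had 43.3 and 77.2 normalized counts in WT against 588 and 67.5 in LXRDKO mice. Their part in the values of the conjugation genes was not tested. Without this liver, the log2 fold changes of genes that overlapped between genotypes were 1.00 for Ugt1a9, 0.37 for Sult1a1, −0.17 for Ugt1a6b, −0.19 for Ugt1a1, −0.28 for Ugt3a1 and −0.40 for Sult2a8.

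**Figure D5:**
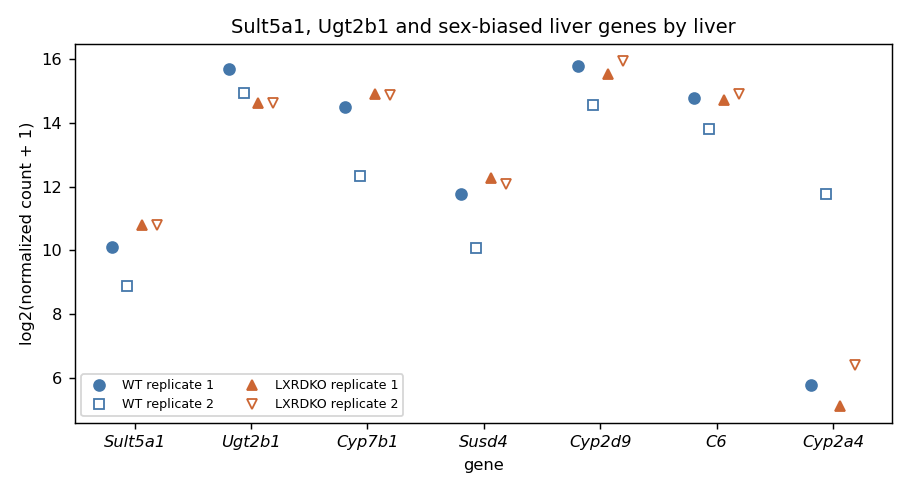
Levels by liver, as log2(normalized count + 1), of Sult5a1 and Ugt2b1 and of 5 genes that differ between male and female liver. Filled circles and open squares are WT replicates 1 and 2, and triangles pointing up and down are LXRDKO replicates 1 and 2. The open square of WT replicate 2 is the lowest for Sult5a1, Cyp7b1, Susd4, Cyp2d9 and C6 and the highest for Cyp2a4. In Ugt2b1 this liver lay above both LXRDKO livers. The male-biased Cyp4a12a and Cyp4a12b, in which this liver also lay above both LXRDKO livers, are not shown. Other listed genes without this pattern are not shown either, such as Hsd3b5 (lowest in LXRDKO replicate 2) and Cyp2b9 (highest in LXRDKO replicate 1).

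The genes that supply the donors and clear the conjugates were compared next. Of 6 genes for UDP-glucuronic acid supply, which include Ugp2 and Ugdh, limma, DESeq2 and edgeR called none, 1 had an unadjusted limma P under 0.05, and the log2 fold changes ran from −0.40 (Slc35d1) to 0.19 (Ugdh). Of 8 genes for PAPS supply and turnover in the table none was called by limma, DESeq2 or edgeR, and 0 had an unadjusted limma P under 0.05. Papss2, the main PAPS synthase gene of liver, had 16307 and 21800 normalized counts in WT against 12918 and 15594 in LXRDKO mice. It was lower in both LXRDKO livers, but the log2 fold change of −0.41 did not pass the threshold (limma adjusted P = 0.394). Of 6 genes for export and hydrolysis of conjugates, 3 had an unadjusted limma P under 0.05, limma called none after adjustment and DESeq2 called Arsa, the arylsulfatase A gene of the lysosome. Arsa had 6326 and 7280 normalized counts in WT against 4029 and 3469 in LXRDKO mice, a log2 fold change of −0.86 (adjusted P = 0.0818 from limma and 7.94e-06 from DESeq2). Abcc2, the canalicular exporter of glucuronides, had 64267 and 64158 normalized counts in WT against 46432 and 51728 in LXRDKO mice (log2 fold change −0.39, adjusted P = 0.289, limma).

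Receptors that control conjugation genes were compared in the same way. Of 12 regulators 3 had an unadjusted limma P under 0.05, limma called none after adjustment and DESeq2 called Ppara lower. The log2 fold changes of Nr1i2 (PXR), Nr1i3 (CAR) and Nr1h4 (FXR) were −0.0026, 0.05 and 0.03. Among 7 targets of CAR and PXR, 5 log2 fold changes were positive and 2 negative, 2 genes had an unadjusted limma P under 0.05, and Cyp2b10 was called by limma and DESeq2. It had 348 and 499 normalized counts in WT against 1825 and 2099 in LXRDKO mice, a log2 fold change of 2.23 ± 0.20 (SE, limma adjusted P = 0.0280). Among the others, Cyp3a11 had a log2 fold change of 0.36 (adjusted P = 0.669, limma), Cyp2c55 one of −0.62 (adjusted P = 0.651, limma) and Ces2a one of −0.15 (adjusted P = 0.840, limma). None of 5 targets of the aryl hydrocarbon receptor was called by limma or DESeq2 or had an unadjusted limma P under 0.05, and of 7 NRF2 targets tested 1 had such a P, limma called none after adjustment and DESeq2 called Gclc lower.

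Promoters were searched for the nuclear receptor element AGGTCA in the 250 bases before the start of transcription, on both strands, with RefSeq sequences of GRCm38.p6 that matched 28 of the 33 genes. It was found for 10 of these genes, Sult1b1, Sult1e1, Sult2a8, Ugt1a7c, Ugt1a9, Ugt2b35, Ugt2b36, Ugt2b37, Ugt2b38 and Ugt2b5, in 10 of their 31 promoters, and in 14.0% of 32851 promoters in all. The paired element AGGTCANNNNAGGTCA, which contains the shorter one and to which LXR binds with RXR, was found for none of the 28 genes and in 0.015% of all promoters. The promoters of Sult1d1, Sult1c2 and Ugt2b1 held no AGGTCA in this window. Whether Sult2a7 was among the 28 genes matched is not given here. Any other gene missing from the 10 may have had no promoter to search. A match describes letters in this window and not binding. Only exact letters were searched, and regions beyond the window were not. The paired element is so rare, at 0.015% of all promoters, that finding none in 31 promoters says little about these genes. The paper states that many important LXR elements are imperfect repeats.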

How the data were processed

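Polyadenylated liver RNA (left lobe) had been sequenced as single-end reads of 50 bp. The deposited signal is the count scaled by the authors through DESeq2 size factors, after alignment to mm10 with STAR 2.6.0c according to the submitters' processing notes. The counting tool and the annotation release are not given in the sources used here. All values (100%) were whole multiples of 1 read per library, within a tolerance of 0.01 read, so reads could be recovered.

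The main test was limma 3.58.1 (R 4.3.3, variance trend) on log2 values with a pseudocount of 1, for genes averaging 10 or more, with Benjamini-Hochberg adjustment over all of them. Fold changes on this scale understate the change of low genes. DESeq2 1.42.0 and edgeR 4.0.16 (quasi-likelihood) were run on the recovered reads. Other settings tried were a pseudocount of 0.5 or 8, omitting the filter or raising it to 50, upper-quartile and total scaling, limma without a trend or with robust moderation, a threshold of 0.10, the replicate number as a block and leaving out each liver. A fit without 1 liver leaves a single liver in that genotype, so only its log2 fold changes are given. The labels do not say whether replicate numbers pair the mice. The correlation of the replicate deviations between genotypes was 0.0031, which cannot decide it.

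Members, gene lists and tests were chosen with earlier results of these data known. Values in every liver are given for members called by limma or DESeq2, for the highest member of each family and for up to 3 members per family with the largest differences and no overlap. Ugt8a is given apart. Gene positions, exons and transcripts came from GENCODE M21 on GRCm38 and promoters from RefSeq. Chromatin accessibility was not analysed here.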

Additional observations from a re-analysis of the deposited data

How the results depend on the processing

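The number of members called, 1, was 2 at a threshold of 0.10, 2 with upper-quartile scaling, 4 with DESeq2 and 0 for limma without a trend, where 9 had an unadjusted P value under 0.05. It ranged from 0 to 3 when each liver was left out, with 0 without either LXRDKO liver, 2 without WT replicate 2 and 3 without WT replicate 1. The calls over all genes, 50, became 138 at a threshold of 0.10, 25 with a mean of at least 50, 567 with DESeq2, 90 with the replicate block and 1 for limma without a trend, and ranged from 2 to 265 when each liver was left out. The replicate block left the call of Sult2a7 in place and added no member. Of the 26 members tested, 18 kept the sign of their log2 fold change under every alternative, Sult2a7, Sult1d1, Sult1c2, Ugt2b1 and Sult5a1 among them. For 7 others the sign changed only when 1 liver was left out, with ranges from −0.077 to 1.00 for Ugt1a9, −0.17 to 0.34 for Ugt1a6b, −0.19 to 0.033 for Ugt1a1, −0.40 to 0.064 for Sult2a8, −0.15 to 0.37 for Sult1a1, −0.28 to 0.12 for Ugt3a1 and −0.0066 to 0.60 for Ugt3a2. Ugt2b34 ranged from −0.15 to 0.046 and was 0.0023 with total scaling. When each liver was left out, the median of the Ugt1a genes ranged from −0.17 to 0.12 and that of the Sult1 genes from 0.35 to 0.83. Ugt1a10, Ugt8a and Sult1e1 have no value with a mean of at least 50. The causes were not tested. With 2 mice for each genotype most differences did not pass the threshold, which does not show that the genes were unchanged.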
